A study of Mus musculus with 123 samples.

Results

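Glutathione metabolism was followed here through 10 genes: Gclc, Gclm, Gss, Gsr, Mgst1, Mgst2, Mgst3, Gsto1, Gpx1 and Gpx4. They were chosen by name, and each was found on 1 line of a count table of 29022 mouse genes. The table holds single embryos, 96 Ctrl or KO and 27 MWT, in 16 groups, and the question asked of each member was how its transcripts differed between groups that kept or lost Oct4 (encoded by Pou5f1) or Sox2, and between stages. Mgst2 and Mgst3, and Gstm1 and Gstm2 among the other pathway genes below, belong to genes that the study itself drew attention to in the same embryos. Their direction in the KO embryos is therefore not independent evidence.

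The embryos came from 2 lines. The mothers were Pou5f1 flox/flox; Zp3-Cre or Sox2 flox/flox; Zp3-Cre, in which the oocyte-driven Cre deletes the floxed gene before fertilization, and the fathers were Pou5f1+/mKO2 or Sox2+/EGFP heterozygotes. KO embryos inherited the fluorescent null allele and had neither a maternal nor a zygotic copy, whereas Ctrl embryos had a deleted maternal allele and a paternal wild-type allele, so both groups lacked the maternal product and Ctrl embryos were not wild type. MWT embryos had an intact maternal gene. Each library was 1 morula (E2.75) or 1 inner cell mass (ICM) isolated by immunosurgery from an early (E3.75) or late (E4.5) blastocyst. Embryos for ICMs were cultured with 1 µM PD0325901, a MEK inhibitor that suppresses the primitive endoderm, so that the ICMs stand for an epiblast formed under the inhibitor rather than for an untreated ICM. Ctrl and KO groups held 8 embryos each at all 3 stages of both lines. The MWT embryos were 7 morulae, 5 early and 8 late ICMs for Oct4, and 7 early ICMs for Sox2. Titles and source names of the Oct4 MWT ICMs gave different stages, and the titles were used. The 5 Oct4 MWT early ICMs carry a morula source name and no inhibitor in their labels, and the 8 late ones an early ICM source name, so stage and treatment of both groups are uncertain. Embryos were separate samples, so the p-values measure the spread between embryos. Replicate labels of late Ctrl and KO ICMs fall in 2 sets, starting with 1- or 2-, and the labels do not say what the sets are. The main fit had no term for them.

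Glutathione is a tripeptide of glutamate, cysteine and glycine and the most abundant small thiol of the cell. Glutamate-cysteine ligase, made of the catalytic subunit Gclc and the modifier subunit Gclm, joins the first pair of amino acids, and glutathione synthetase (Gss) adds glycine. Glutathione peroxidases use the thiol to reduce peroxides, glutathione transferases couple it to other molecules, and glutathione reductase (Gsr) returns the oxidized form to the reduced one with NADPH. Mgst1, Mgst2 and Mgst3 are small integral membrane proteins of the MAPEG family, of which Mgst2 can also make leukotriene C4. In preimplantation embryos glutathione is inherited in part from the oocyte and is known as a guard against oxidative stress in culture.

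The counts are unique molecular identifiers (UMIs), tags that let each captured molecule be counted once. Totals per embryo ran from 525755 to 1344035 UMIs, so a level of 1 CPM (the usual unit of counts scaled to a common total, here a gene's UMIs against all UMIs of its embryo) was about 1 UMI. The targeted gene went with the labels: Pou5f1 had 3, 7 and 1 UMIs in all Oct4-KO morulae, early and late ICMs, and Sox2 was lower in Sox2-KO embryos by log2 fold changes of -2.97, -2.12 and -3.35 at the same stages. Markers of other cells moved with the genotype. The summed level of 10 trophectoderm markers was 277 to 1087 CPM in Ctrl and 1509 to 3160 CPM in KO late ICMs of the Oct4 line, and 263 to 2868 CPM against 668 to 1831 CPM in the Sox2 line. In late ICMs, 9 of 10 epiblast markers fell in the Oct4-KO and 4 in the Sox2-KO. The summed level of 10 primitive endoderm markers was 283 to 1482 CPM in Ctrl and 909.6 to 1610 CPM in KO late ICMs of the Oct4 line, where 2 of the 8 tested were higher and 4 lower, and 386 to 1913 CPM against 564 to 1270 CPM in the Sox2 line, with 0 higher and 1 lower. In whole ICMs, fewer cells of a type and less RNA per cell cannot be told apart.

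A call needed both a log2 fold change of at least 1 in size and an adjusted p (Benjamini-Hochberg) under 0.05 in edgeR's quasi-likelihood test. Adjusted p-values below come from this test over all genes tested. Of the 10 members, 9 were detected well enough to be tested, and Mgst1 was not. In the Oct4 line, KO morulae had none of the 9 called, where 0.804% of all genes tested were called and 1707 genes had an unadjusted p under 0.05. KO early ICMs had 2 members lower, where 10.9% of all genes were called (4.77% higher, 6.11% lower). KO late ICMs had 2 higher and 1 lower, where 18.1% were called (9.25% higher, 8.85% lower). In the Sox2 line, no member was called in KO morulae (0.00712% called, 618 genes at an unadjusted p under 0.05) or in KO early ICMs (3.27% called, 2750 genes at an unadjusted p under 0.05), and 2 were higher in KO late ICMs (6.95% called, 3.34% higher and 3.61% lower). The members' median log2 fold change, KO against Ctrl, was 0.14, 0.18 and 0.34 from morula to late ICM in the Oct4 line and 0.16, 0.41 and 0.10 in the Sox2 line, where the medians over all genes lay between -0.01 and 0.01.

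**Figure D1:**
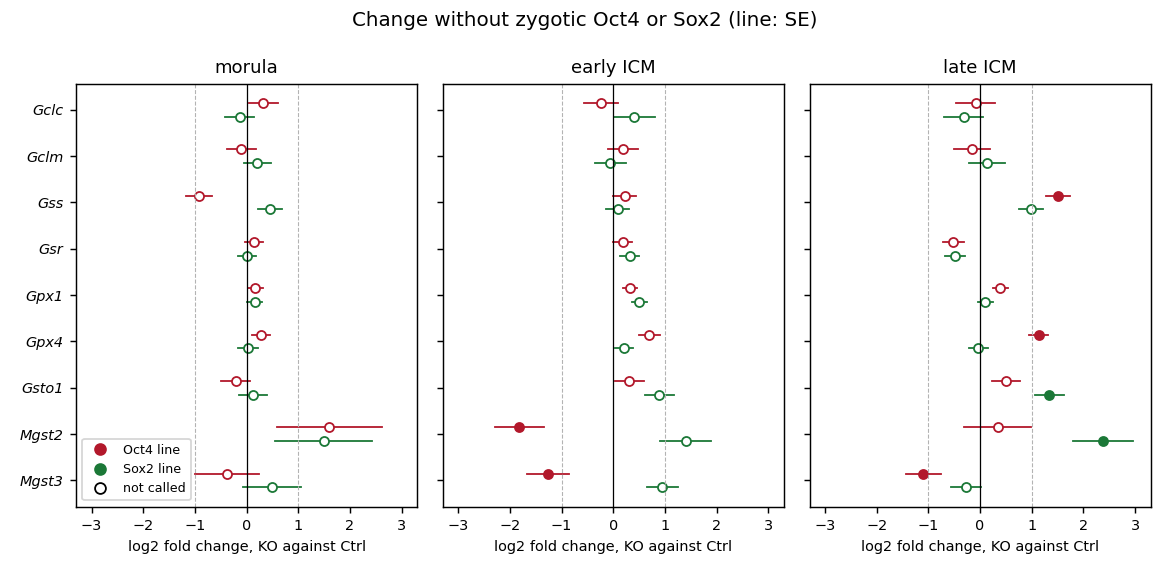
Log2 fold change of each tested member in KO against Ctrl embryos, by line and stage, as fitted by edgeR; horizontal lines show the standard error, filled points are called and dashed lines mark log2 fold changes of -1 and 1. Filled points are Mgst2 and Mgst3 on the lower side in the Oct4-KO early ICM, Gss and Gpx4 on the higher side and Mgst3 on the lower side in the Oct4-KO late ICM, and Mgst2 and Gsto1 on the higher side in the Sox2-KO late ICM.

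Among the membrane transferases, Mgst2 (chr3:51660360-51682677, plus strand of mm10) and Mgst3 (chr1:167371966-167393841, minus strand) carried the calls in the Oct4-KO early ICM. Their promoters are shown with that of Gclm (gene at chr3:122245557-122270732, plus strand), a textbook target of the antioxidant response, so that the sequence before the RefSeq start of the genes that moved together can be read beside one that did not. Each window is the 250 bases before the RefSeq start on GRCm38.p6, at chr3:51660929-51661178 (plus) for Mgst2, chr1:167393842-167394091 (minus) for Mgst3 and chr3:122245307-122245556 (plus) for Gclm, and capitals mark a match to a searched motif. The RefSeq start of Mgst2 lies inside the gene span of the deposited table, so its window lies within that span, whereas the other 2 windows end where the span begins.
Mgst2: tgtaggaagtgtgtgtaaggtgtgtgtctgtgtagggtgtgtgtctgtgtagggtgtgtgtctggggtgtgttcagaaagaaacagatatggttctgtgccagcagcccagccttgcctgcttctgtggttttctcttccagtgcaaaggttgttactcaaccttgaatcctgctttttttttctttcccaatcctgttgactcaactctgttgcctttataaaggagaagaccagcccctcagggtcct
Mgst3: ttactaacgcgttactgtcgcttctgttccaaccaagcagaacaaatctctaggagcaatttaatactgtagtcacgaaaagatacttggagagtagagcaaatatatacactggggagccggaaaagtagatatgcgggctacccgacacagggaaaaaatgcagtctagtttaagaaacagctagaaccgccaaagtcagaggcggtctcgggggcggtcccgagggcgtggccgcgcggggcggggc
Gclm: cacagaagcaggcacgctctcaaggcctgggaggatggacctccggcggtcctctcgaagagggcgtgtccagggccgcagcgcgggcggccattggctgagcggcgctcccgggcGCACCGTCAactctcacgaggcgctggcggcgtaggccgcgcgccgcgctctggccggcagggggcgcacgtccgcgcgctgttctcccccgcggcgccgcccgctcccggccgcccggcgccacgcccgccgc
The motifs searched on both strands were the octamer ATGCAAAT bound by Oct4, the SOX motif CATTGT and the antioxidant response element core TGACNNNGC. Of 32851 mouse promoter windows of this length, 1.6% held the octamer, 10.7% the SOX motif and 10.2% the antioxidant core. The Mgst2 and Mgst3 windows held none of the 3, and the Gclm window held the antioxidant core on its minus strand, 134 to 126 bases before the start. The other member with a match was Mgst1, with the antioxidant core 56 to 48 bases before the start of 1 of its windows. No match says only that these letters are not in these windows. RefSeq windows were matched for 8 of the 10 members, and Gclc and Gsr were not matched.

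Mgst2 was close to the limit of detection in morulae and appeared with the early ICM. Morulae were whole embryos with no inhibitor in their labels. From morula to early ICM, stage, culture with the inhibitor and isolation of the ICM changed together. For this gene and all those below, these cannot be told apart at that step. In the Oct4 line the 8 Ctrl morulae held 3 Mgst2 UMIs in all, 0 to 1.03 CPM, and the 8 Ctrl early ICMs 201 UMIs, 7.46 to 55.9 CPM with a median of 28.5 and a mean of 30.1 ± 17.9 (SD, n = 8). The groups did not overlap. The ratio of the summed UMIs was 77.4 (95% interval 26.1 to 378, counting error only), and the log2 fold change was 5.76 ± 0.71 (SE, adjusted p = 3.69e-11 by edgeR's quasi-likelihood test). In this stage comparison 3 members were higher and 1 lower, where 29% of all genes were called (14.1% higher, 14.9% lower). Oct4 Ctrl late ICMs were back at 0 to 10.0 CPM with a median of 2.28, and Mgst2 fell by 2.77 ± 0.54 on the log2 scale from early to late ICM (adjusted p = 2.15e-05). In that comparison 3 members were higher and 2 lower, where 15.6% of all genes were called (9.52% higher, 6.04% lower). Sox2 Ctrl morulae held 4 UMIs, Ctrl early ICMs 1.23 to 19.6 CPM with a median of 4.11, and Ctrl late ICMs 0 to 6.78 CPM with a median of 1.19. The rise to the early ICM was called (log2 fold change 3.47 ± 0.77, adjusted p = 8.74e-05), and the later value was not (-1.33 ± 0.62, adjusted p = 0.192). Neither step was called different between the lines (adjusted p = 0.301 and 0.311).

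In KO early ICMs Mgst2 went opposite ways in the 2 lines. Oct4-KO early ICMs held 0, 7.33 and 20.7 CPM as lowest, median and highest value against 7.46, 28.5 and 55.9 CPM in Ctrl. The ranges overlapped, with all 8 KO embryos below the Ctrl median. Sox2-KO early ICMs held 1.19, 19.4 and 32.1 CPM against 1.23, 4.11 and 19.6 CPM in Ctrl, again with overlap and with 7 of 8 KO embryos above the Ctrl median. The log2 fold change was -1.82 ± 0.48 in the Oct4 line (adjusted p = 0.00263) and 1.40 ± 0.49 in the Sox2 line (adjusted p = 0.0648), so the second did not pass on its own. The difference between the KO effects did: -3.22 ± 0.68 on the log2 scale, Oct4 minus Sox2 line (adjusted p = 0.000665), with Mgst3 the only other member called among 9 (5.52% of all genes called, 3.42% on the lower side). Trophectoderm markers went the same way in both lines: their sum was 450 to 1370 CPM in Ctrl and 942 to 1519 CPM in KO early ICMs of the Oct4 line (3 of 10 higher, 1 lower) and 189 to 662 CPM against 542 to 2078 CPM in the Sox2 line (4 higher, 1 lower), and each of the 10 had UMIs in all 4 groups. Primitive endoderm markers summed to 591 to 936 CPM in Ctrl and 807 to 1306 CPM in KO early ICMs of the Oct4 line (1 of 8 tested higher, 2 lower; Foxa2 at 0 in both groups and Sox7 at 0 in KO) and to 227 to 902 CPM against 567 to 918 CPM in the Sox2 line (1 higher, 0 lower; Foxa2 at 0 in both). Epiblast markers summed to 4957 to 7051 CPM in Ctrl and 3038 to 3780 CPM in KO early ICMs of the Oct4 line, without overlap (7 of 10 lower, 0 higher), and to 3657 to 5793 CPM against 3525 to 4108 CPM in the Sox2 line, with overlap (4 lower, 0 higher). The part of these lists in the Mgst2 result was not tested. The 2 Ctrl groups themselves stood apart, at means of 30.1 ± 17.9 and 6.58 ± 6.30 CPM, and the KO means of 8.03 ± 6.68 and 16.9 ± 9.97 CPM lay between them.

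At the late stage Mgst2 averaged 13.5 ± 10.7 CPM in Sox2-KO ICMs and 2.66 to 4.91 CPM in the other late groups. Sox2-KO late ICMs held 4.99, 10.5 and 39.1 CPM as lowest, median and highest value against 0, 1.19 and 6.78 CPM in Ctrl. The ranges overlapped, and all 8 KO embryos lay above the Ctrl median. The log2 fold change was 2.38 ± 0.58 (adjusted p = 0.00197), and it was 1.94 (adjusted p = 0.0204) without the embryo at 39.1 CPM. Oct4-KO late ICMs held 0 to 14 CPM with a median of 4.22 against 0 to 10.0 CPM in Ctrl, and Mgst2 was not called there (0.34 ± 0.65, adjusted p = 0.743). Neither the difference between lines at this stage (-2.04 ± 0.89, adjusted p = 0.15) nor that between late and early KO effects in the Oct4 line (2.16 ± 0.81, adjusted p = 0.115) passed. In KO morulae 11 UMIs stood against 3 in the Oct4 line and 13 against 4 in the Sox2 line, which gives ratios of 3.58 (95% interval 0.945 to 19.96) and 3.36 (1.04 to 14.2), counting error only. Neither was called (adjusted p = 0.58 and 1).

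Over the 16 groups Mgst2 was highest on average in Oct4 Ctrl early ICMs, then Oct4 MWT early ICMs (20.1 ± 7.35 CPM, n = 5, the group with a morula source name), Sox2-KO early ICMs and Sox2-KO late ICMs. The morula groups were lowest, at means of 0.368 to 1.49 CPM. In this order each group overlapped the next for all 15 neighbouring pairs, and the same held for the other 8 tested members. The genes whose group means followed Mgst2 most closely, by Pearson's r over the 16 means of log2(CPM + 1), were Prdx1 (0.94), a peroxiredoxin that reduces peroxides with thioredoxin, Hadhb (0.932), a subunit of the mitochondrial trifunctional protein of fatty acid oxidation, Fnbp1 (0.919), Pabpn1 (0.915), a nuclear poly(A)-binding protein, and Cnot9 (0.908), a subunit of the CCR4-NOT deadenylase. They are the 5 highest of 9710 genes compared once predicted genes are passed over, and the 16 means share lines, stages and libraries, so the values are descriptive.

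**Figure D2:**
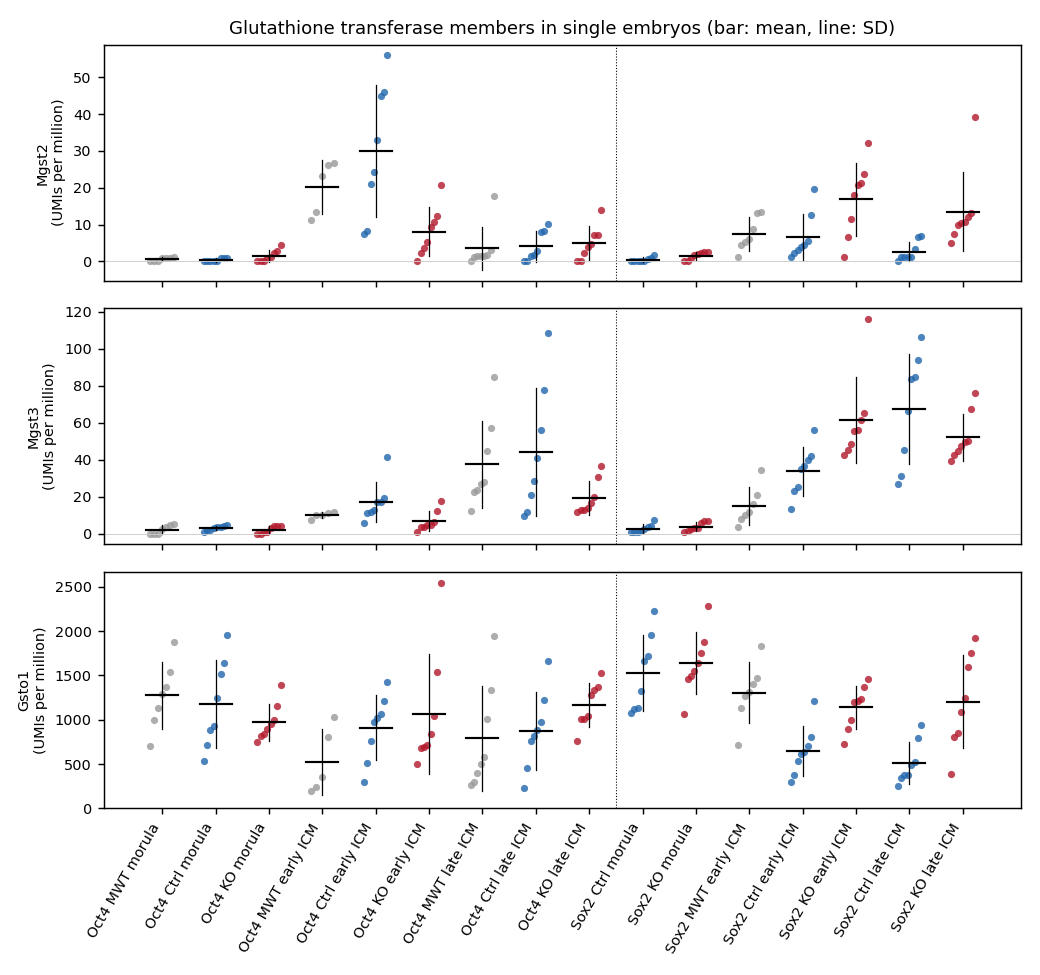
CPM of Mgst2, Mgst3 and Gsto1 in each embryo, by line, stage and genotype; points are embryos, bars the group mean and vertical lines the SD. Mgst2 points are near 0 in all morulae and reach 55.9 CPM in Oct4 Ctrl early ICMs, Mgst3 points are low in all morulae, up to 7.60 CPM, and reach 116 CPM in Sox2-KO early ICMs, and Gsto1 points reach over 1000 CPM at every stage.

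Mgst3 rose at both stage steps in the Oct4 line. Oct4 Ctrl embryos held 1.02, 3.28 and 4.72 CPM as lowest, median and highest value in morulae, 5.75, 14.9 and 41.6 CPM in early ICMs, and 9.63, 34.8 and 108.4 CPM in late ICMs. Morulae and early ICMs did not overlap, and early and late ICMs did. The log2 fold changes were 2.35 ± 0.46 (adjusted p = 1.01e-05) and 1.42 ± 0.34 (adjusted p = 0.000472). Sox2 Ctrl embryos held medians of 2.18, 35.7 and 75.2 CPM at the 3 stages, with no overlap between morulae (up to 7.60 CPM) and early ICMs (from 13.3 CPM). The early step was called (3.50 ± 0.42, adjusted p = 1.51e-11), with 3 members higher and 3 lower where 31.9% of all genes were called (17.2% higher, 14.7% lower). The later step had a log2 fold change of 0.96 ± 0.30 (adjusted p = 0.0332), under the fold minimum, and 1 member was lower in that comparison, where 2.9% of all genes were called (1.94% higher, 0.961% lower).

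Oct4-KO ICMs held less Mgst3 at both ICM stages. KO early ICMs held 1.04, 4.80 and 17.6 CPM as lowest, median and highest value, with 7 of 8 embryos below the Ctrl median, and KO late ICMs 11.6, 15.4 and 36.6 CPM, again with 7 of 8 below. Both overlapped Ctrl. The log2 fold changes were -1.26 ± 0.41 (adjusted p = 0.0187) and -1.10 ± 0.34 (adjusted p = 0.00776). Single embryos carried much of both calls. Without the Ctrl early ICM at 41.6 CPM the first was -0.89 (adjusted p = 0.132), without the KO early ICM replicate 10 it was -1.08 (adjusted p = 0.0519), and without the Ctrl late ICM replicates 1-9 or 2-9 the second was -0.92 (adjusted p = 0.0339) or -0.79 (adjusted p = 0.0702). In the Sox2 line, KO early ICMs held 42.7, 56.0 and 116 CPM against 13.3, 35.7 and 56.3 CPM in Ctrl, all 8 above the Ctrl median (log2 fold change 0.94 ± 0.30, adjusted p = 0.038, under the fold minimum), and KO late ICMs 39.1 to 76.0 CPM against 27.1 to 106.5 CPM (-0.27 ± 0.30, adjusted p = 0.619). The KO effects on Mgst3 in the early ICM differed between the lines by -2.20 ± 0.51 (adjusted p = 0.00197). Limma on the deposited rlog values gave -0.83 and -0.66 for the KO effect in Oct4 early and late ICMs, under the fold minimum.

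Mgst1 (chr6:138140316-138156755, plus strand), the liver-rich founding member of the membrane group, was listed with 1 UMI in 1 Sox2 Ctrl morula and 1 UMI in 1 Sox2 Ctrl late ICM and with 0 in the other embryos. It was below the detection minimum and was not tested.

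Gsto1 (chr19:47854970-47864790, plus strand) encodes the omega-class cytosolic transferase, which acts mostly as a thiol transferase and dehydroascorbate reductase. It changed in the Sox2 line. Sox2 Ctrl embryos fell from 1077, 1497 and 2230 CPM as lowest, median and highest value in morulae to 297, 624 and 1208 CPM in early ICMs (log2 fold change -1.30 ± 0.28, adjusted p = 4.88e-05), and late ICMs held 257, 435 and 946 CPM. The ranges of morulae and early ICMs overlapped. Sox2-KO ICMs held 728, 1209 and 1459 CPM at the early and 387, 1167 and 1921 CPM at the late stage. All 8 KO early ICMs and 7 of 8 KO late ICMs lay above the Ctrl median, with overlap at both stages. The log2 fold change was 0.89 ± 0.28 in early ICMs (adjusted p = 0.0329, under the fold minimum) and 1.34 ± 0.28 in late ICMs (adjusted p = 0.000243). By label set, Sox2-KO late ICMs held 387 to 1086 CPM (1-) and 1249 to 1921 CPM (2-). Sox2 Ctrl late ICMs held 345 to 793 CPM (1-) and 257 to 946 CPM (2-). In the Oct4 line no comparison called Gsto1. The difference between the KO effects, Oct4 minus Sox2 line, did not pass. It was -0.58 ± 0.39 in early ICMs (adjusted p = 0.403) and -0.84 ± 0.39 in late ICMs (adjusted p = 0.191). Gsto1 lies within Cfap43, which held 516 UMIs in all embryos together and was not called in Sox2-KO late ICMs (0.14 ± 1.07, adjusted p = 0.961).

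Gclc (chr9:77754535-77794485, plus strand) and Gclm, the subunits of the ligase that limits glutathione synthesis, were lower at the later stage wherever a stage step was called, and no KO comparison called either. Gclc dropped from 11.2, 19 and 24.7 CPM as lowest, median and highest value in Sox2 Ctrl morulae to 0.951, 3.63 and 6.15 CPM in early ICMs, with no overlap (-2.35 ± 0.34, adjusted p = 4.16e-09). In the Oct4 line the same step went from a median of 13.8 to 8.95 CPM with overlap (-0.82 ± 0.31, adjusted p = 0.0213, under the fold minimum). The steps differed between the lines by 1.53 ± 0.46 (adjusted p = 0.00753), a comparison added after the stage values were seen, in which 16.6% of all genes and 2 of the 9 members were called. Gclm averaged 97.5 ± 42.7, 76.3 ± 45.5 and 33.3 ± 8.82 CPM in Oct4 Ctrl morulae, early ICMs and late ICMs, and 143 ± 46.4, 59.3 ± 37.7 and 25.1 ± 13.1 CPM in the Sox2 line. Every late Ctrl ICM lay below the median of its early ICMs in both lines, with overlap. The fall from early to late ICM was called in both (-1.13 ± 0.32, adjusted p = 0.00318, and -1.28 ± 0.32, adjusted p = 0.00594), and that from morula to early ICM in the Sox2 line (-1.31 ± 0.28, adjusted p = 5.41e-05). In the Oct4 line the later fall was -0.92 (adjusted p = 0.0213) without the Ctrl early ICM replicate 1. KO and Ctrl medians of Gclm lay close together at each stage, with log2 fold changes of -0.15 to 0.21 over the 6 KO comparisons, and those of Gclc ran from -0.32 to 0.41, adjusted p 0.626 or more for both genes.

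Gss (chr2:155563181-155592810, minus strand), the enzyme of the final step, behaved differently from the ligase. Oct4 Ctrl embryos held 18, 55.6 and 82.4 CPM as lowest, median and highest value in morulae, 65.3, 121.8 and 249 CPM in early ICMs and 44.2, 65.5 and 93.2 CPM in late ICMs. The values were highest in the early ICM, with overlap at both steps. The first step was called (1.23 ± 0.23, adjusted p = 6.22e-06), and the second stayed just under the fold minimum (-0.92 ± 0.24, adjusted p = 0.00125). Sox2 Ctrl embryos had the same order, with means of 55.8 ± 17.5, 109 ± 39.3 and 71.1 ± 19.1 CPM, and neither step was called (0.90 ± 0.23, adjusted p = 0.000683, under the fold minimum, and -0.65 ± 0.23, adjusted p = 0.0711).

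Gss was higher in Oct4-KO late ICMs. They held 110, 170 and 288 CPM as lowest, median and highest value against 44.2, 65.5 and 93.2 CPM in Ctrl, with no overlap, the only KO comparison of a member without it. Gss was 1.51 ± 0.24 higher on the log2 scale there (adjusted p = 1.72e-07). Sox2-KO late ICMs held 99.8, 115 and 194 CPM against 45.0, 73.0 and 103 CPM in Ctrl, where all 8 KO embryos were above the Ctrl median and the ranges met only at their ends (0.99 ± 0.23, adjusted p = 0.00117, just under the fold minimum). The difference between the lines did not pass (0.52 ± 0.33, adjusted p = 0.38). In early ICMs Gss had log2 fold changes of 0.22 and 0.09 (adjusted p = 0.544 and 0.884), and the late effect exceeded the early one in the Oct4 line by 1.29 ± 0.32 (adjusted p = 0.00875), the 1 member called there (3.11% of all genes called, 2.07% higher). The same difference was 0.90 ± 0.32 in the Sox2 line (adjusted p = 0.268, 0.0427% of all genes and no member called, 1494 genes at an unadjusted p under 0.05). In Oct4-KO morulae Gss lay lower, at 12.1, 28.8 and 33.5 CPM against 18, 55.6 and 82.4 CPM, all 8 embryos below the Ctrl median (-0.92 ± 0.26, adjusted p = 0.0421, under the fold minimum). The trophectoderm markers were also higher in Oct4-KO late ICMs, where 8 of the 10 rose, and so was the sum of the primitive endoderm markers given above, with 2 higher and 4 lower. Their part in the Gss result was not tested. Gss overlaps Acss2 on the opposite strand, and whether the counting used strand was not stated. Acss2 held 1315 UMIs over all embryos and was not called in Oct4-KO late ICMs (0.48 ± 0.37, adjusted p = 0.335), but it was higher in Sox2-KO late ICMs (1.04 ± 0.34, adjusted p = 0.0248).

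**Figure D3:**
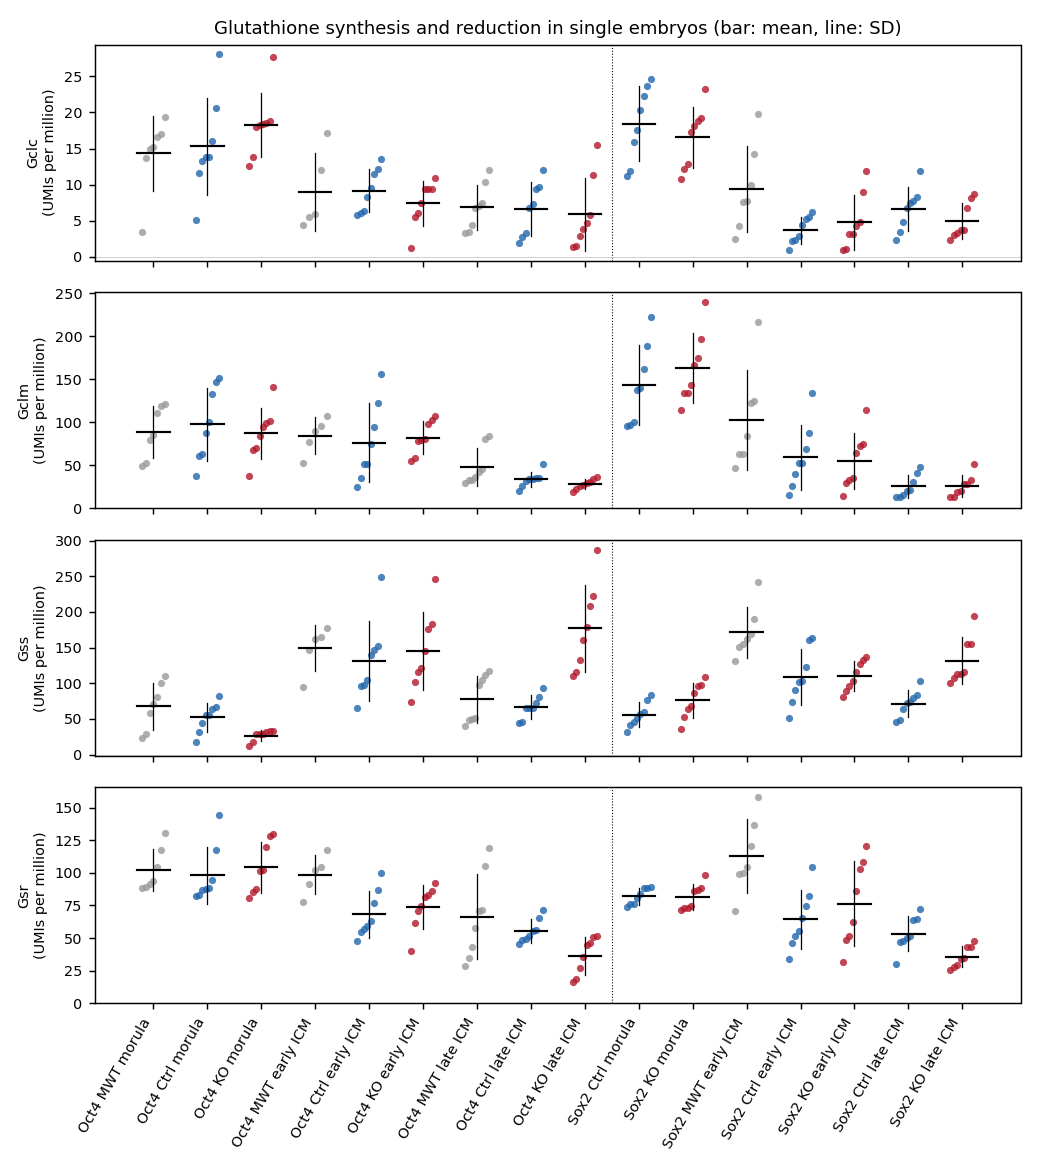
CPM of Gclc, Gclm, Gss and Gsr in each embryo, by line, stage and genotype; points are embryos, bars the group mean and vertical lines the SD. Gclm means are lowest in the late ICMs of each line, while all Gss points of Oct4-KO late ICMs, from 110 CPM, lie above all Ctrl late ICMs, up to 93.2 CPM.

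Gsr (chr8:33652523-33698163, plus strand), which recycles oxidized glutathione, was not called in any KO or stage comparison. Ctrl means were 98.0, 68.2 and 55.5 CPM from morula to late ICM in the Oct4 line and 81.8, 64.3 and 53.3 CPM in the Sox2 line. Late KO ICMs held 15.9, 40.3 and 51.4 CPM as lowest, median and highest value in the Oct4 line and 25.3, 34.6 and 47.6 CPM in the Sox2 line. In each line all 8 KO embryos lay below the Ctrl medians of 53.5 and 50.9 CPM, and the ranges overlapped. The log2 fold changes were -0.52 ± 0.20 (adjusted p = 0.041, under the fold minimum) and -0.48 ± 0.20 (adjusted p = 0.0949).

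Gpx4 (chr10:80047166-80056439, plus strand), the peroxidase that reduces lipid hydroperoxides in membranes and protects against ferroptosis, went opposite ways in the 2 lines from morula to early ICM. Oct4 Ctrl embryos held 77.4, 104 and 171 CPM as lowest, median and highest value in morulae, 20.4, 35.2 and 43.7 CPM in early ICMs and 62.9, 85.3 and 133 CPM in late ICMs. The early ICMs lay below both other stages without overlap. The log2 fold changes were -1.74 ± 0.19 (adjusted p = 6.25e-13) and 1.42 ± 0.20 (adjusted p = 6.91e-09). Sox2 Ctrl embryos rose instead from 26.9, 48.9 and 52.8 CPM in morulae to 73.6, 91.5 and 127 CPM in early ICMs (1.09 ± 0.19, adjusted p = 4.59e-07), again without overlap, and stayed there (-0.01 ± 0.18, adjusted p = 0.988). The steps differed between the lines by -2.83 ± 0.27 (adjusted p = 2.37e-15) and by 1.43 ± 0.27 for late against early ICM (adjusted p = 3.42e-05, 6.53% of all genes and 1 member called), in the comparison added after seeing the values. The lines also differ in their alleles and parents, which cannot be told apart from the line itself.

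In Oct4-KO late ICMs Gpx4 was higher, at 113, 187 and 252 CPM as lowest, median and highest value against 62.9, 85.3 and 133 CPM. All 8 KO embryos were above the Ctrl median, and 1 Ctrl embryo, at 133 CPM, reached into the KO range. The log2 fold change was 1.13 ± 0.18 (adjusted p = 2.34e-07). In the Sox2 line the late value was -0.03 ± 0.18 (adjusted p = 0.946), and the difference between the lines was 1.17 ± 0.25 (adjusted p = 0.000858), the 1 member called there (6.3% of all genes called, 2.81% higher). Oct4-KO early ICMs had a log2 fold change of 0.70 ± 0.20 (adjusted p = 0.00649, under the fold minimum). A processed copy, Gpx4-ps2 (chr10:45875291-45876086), held 4653 UMIs over all embryos and took the same direction in Oct4-KO late ICMs (1.22 ± 0.18, adjusted p = 2.76e-08), so the split of reads between gene and copy is uncertain. Gpx4 held 48.8 to 76.6% of the UMIs of both, by group. Counted as 1 feature, after the values were seen, gene and copy were higher by 1.15 in Oct4-KO late ICMs (adjusted p = 5.78e-10) and the steps still differed between lines (-2.13, adjusted p = 6.2e-14, and 1.36, adjusted p = 1.48e-06), while the rise in Sox2 Ctrl early ICMs was 0.73 (adjusted p = 2.42e-05), under the fold minimum.

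Gpx1 (chr9:108338903-108340343, plus strand), the cytosolic and mitochondrial selenium peroxidase of hydrogen peroxide, rose late. Oct4 Ctrl embryos held 439, 685 and 887 CPM as lowest, median and highest value in early ICMs and 1242, 1714 and 2137 CPM in late ICMs, with no overlap (1.37 ± 0.15, adjusted p = 4.56e-13). In the Sox2 line the means were 853 and 1490 CPM, and every late ICM was above the early median (0.77 ± 0.14, adjusted p = 0.000211, under the fold minimum). KO effects on Gpx1 were small: 0.39 ± 0.14 in Oct4-KO late ICMs (adjusted p = 0.0251) and 0.50 ± 0.14 in Sox2-KO early ICMs (adjusted p = 0.017), where all 8 KO embryos were above the Ctrl median, and between 0.10 and 0.32 in the other 4 comparisons. Neither adjusted p stayed under 0.05 without 1 embryo: the first was 0.27 (adjusted p = 0.162) without KO replicate 1-5, and the second 0.43 (adjusted p = 0.0586) without Ctrl replicate 2.

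**Figure D4:**
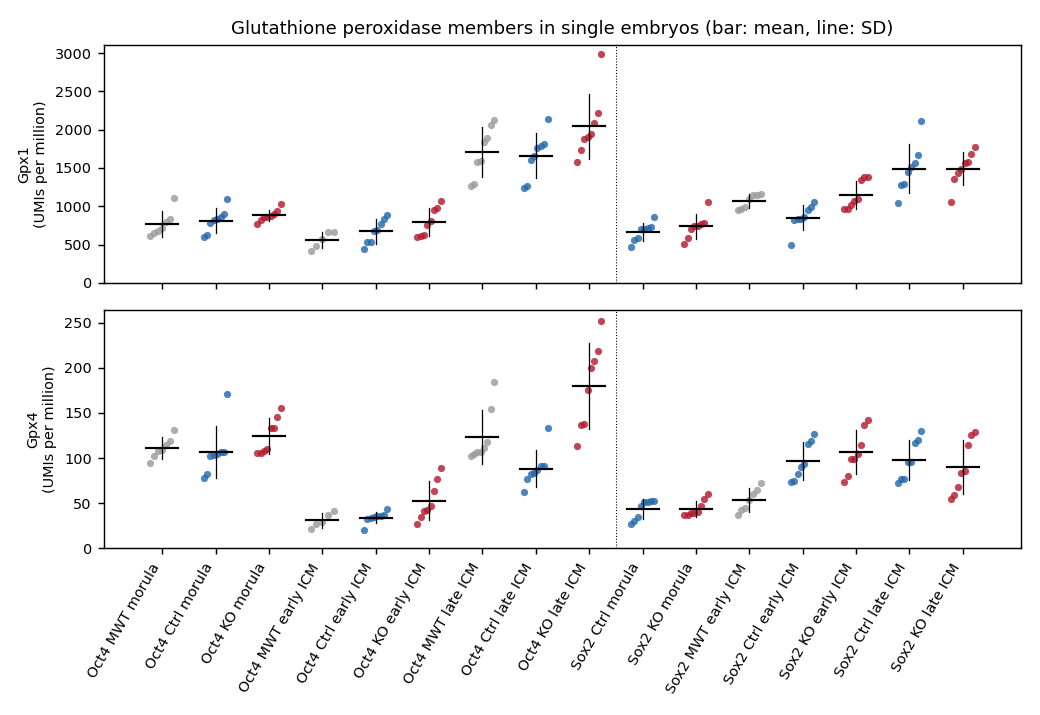
CPM of Gpx1 and Gpx4 in each embryo, by line, stage and genotype; points are embryos, bars the group mean and vertical lines the SD. Gpx4 was 20.4 to 43.7 CPM in Oct4 Ctrl early ICMs, against 73.6 to 127 CPM in Sox2 Ctrl early ICMs, and Gpx1 points are highest in late ICMs of both lines.

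Ctrl embryos, which lack the maternal gene product, were compared with MWT embryos, which have it. Ctrl embryos also carry a deleted maternal allele, so maternal product and the embryo's own copies cannot be told apart here. In Sox2 early ICMs, mean Sox2 was 109.2 CPM in Ctrl and 109.1 CPM in MWT. Pou5f1 was 40.5 to 88.6 CPM in Ctrl and 97.7 to 133.5 CPM in MWT, without overlap. The reason was not tested. In the Oct4 line, where stage and treatment of the MWT ICMs are uncertain, no member was called in morulae, early ICMs or late ICMs, and 0.0646%, 0.373% and 0.797% of all genes were called and 1005, 1326 and 1939 genes had an unadjusted p under 0.05. In Sox2 early ICMs 3 of the 9 were called, where 2.58% of all genes were (1.41% higher, 1.17% lower). Gclc was lower in Ctrl, at 0.951 to 6.15 CPM against 2.45 to 19.8 CPM (-1.36 ± 0.39, adjusted p = 0.0175). Gsto1 was lower as well, at a median of 624 against 1319 CPM (-1.03 ± 0.31, adjusted p = 0.0294), and Mgst3 higher, at a median of 35.7 against 11.6 CPM (1.15 ± 0.37, adjusted p = 0.0444). All 8 Ctrl embryos lay on that side of the MWT median for each gene, with overlap for all 3. Gclc lost its call when the 2 groups were fitted alone (-1.35, adjusted p = 0.063). Gpx4 was 73.6 to 127 CPM in Ctrl and 36.7 to 72.3 CPM in MWT early ICMs, which do not overlap, with 0.84 ± 0.19 (adjusted p = 0.00195, under the fold minimum). Its share of the UMIs of gene and copy was 69.2% in Ctrl and 48.8% in MWT, and the summed level of both overlapped, at 98.3 to 182 CPM in Ctrl and 73.3 to 143 CPM in MWT. Gsr went the other way, at means of 64.3 CPM in Ctrl and 112.9 CPM in MWT, with overlap (-0.82 ± 0.19, adjusted p = 0.0034, under the fold minimum). Sox2-KO early ICMs, at a mean of 1138 ± 245 CPM of Gsto1, lay near the MWT mean of 1307 ± 340 CPM, a pair that was not tested.

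Around the members, 83 other genes of the pathway were tested out of 95 listed ones in the table, in lists of transferases, peroxidases, breakdown, precursor supply, NADPH supply, glutaredoxins, thioredoxins, antioxidant regulators, export and selenocysteine machinery. In Oct4-KO embryos 0 were higher and 1 lower in morulae (0.178% and 0.626% of all genes), 3 and 9 in early ICMs (4.77% and 6.11%), and 13 and 12 in late ICMs (9.25% and 8.85%). In Sox2-KO embryos the counts were 0 and 0 in morulae, 4 and 1 in early ICMs (1.57% and 1.69% of all genes), and 3 and 7 in late ICMs (3.34% and 3.61%). For early and late ICMs the lists' medians were -0.07 and 0.10 in the Oct4-KO and 0.06 and 0.02 in the Sox2-KO, close to the medians over all genes.

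Single genes of precursor supply were lower in KO ICMs. Slc1a4, a carrier of neutral amino acids such as serine and cysteine, held 0 UMIs in the 8 Oct4-KO early ICMs and 80 in Ctrl, and fell in Oct4-KO late ICMs by 3.99 ± 0.57 on the log2 scale (1.26 against 24.8 CPM, adjusted p = 1.51e-08). It was lower in Sox2-KO early ICMs (-1.92 ± 0.49, adjusted p = 0.00606) and late ICMs (-2.33 ± 0.46, adjusted p = 7.47e-05). Sox2-KO late ICMs also had less of the glutamine carrier Slc1a5 (-1.60 ± 0.36, adjusted p = 0.000657) and of Cth (-1.38 ± 0.26, adjusted p = 3.53e-05), which makes cysteine from cystathionine. In all, 3 of 7 tested supply genes were lower there, where 3.61% of all genes were lower.

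Of the breakdown genes, Chac1, which cleaves glutathione inside the cell, fell in KO ICMs of both lines. Oct4-KO early ICMs held 4 Chac1 UMIs against 32 in Ctrl, Oct4-KO late ICMs 2 against 88, and Sox2-KO late ICMs 14 against 127 (-2.90 ± 0.58, adjusted p = 9.37e-05). Ggt1, which degrades glutathione outside the cell, was higher in Sox2-KO late ICMs (1.45 ± 0.27, adjusted p = 4.28e-05), and the peptidase Anpep went to 0 UMIs from 13. Dpep3 was higher in Oct4-KO late ICMs (2.78 ± 0.52, adjusted p = 7.73e-06), and Lap3, a leucine aminopeptidase, was the 1 pathway gene called in Oct4-KO morulae (-1.07 ± 0.20, adjusted p = 0.00026).

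The other transferases split by gene in the Oct4-KO. Of 19 tested, 1 was higher and 4 lower in early ICMs (4.77% and 6.11% of all genes), and 6 higher and 3 lower in late ICMs (9.25% and 8.85%). Gsta2 was higher at both stages (3.07 ± 0.49, adjusted p = 6.63e-07, and 2.66 ± 0.50, adjusted p = 1.18e-05), and Gstm1 lower, at 5 UMIs against 42 in early and 7 against 111 in late ICMs. Gstm3 held 0 UMIs against 6 in early ICMs, a call held in 20 of 25 alternative settings, and 1 against 16 in late ICMs. Gstm2 held 3 against 19 in early ICMs, and Gstm6 44 against 5 in late ICMs. Gsta3 was called lower in early ICMs (adjusted p = 0.0437) but in only 8 of 25 alternative settings. Genes of the mu and alpha clusters are near copies of each other, so the split of reads among them is uncertain. In Sox2-KO late ICMs 1 of the 19 was called, Gstp2 (1.48 ± 0.40, adjusted p = 0.00594), where 6.95% of all genes were called.

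Of the 3 other MAPEG genes, relatives of Mgst2 that serve lipid mediator synthesis, 1 was higher in Oct4-KO early ICMs and 2 at the late stage, and 1 in early ICMs of the Sox2-KO. Of all genes, 4.77%, 9.25% and 1.57% were higher in these comparisons. Ptges, prostaglandin E synthase, averaged 337 CPM in Oct4-KO and 52.7 CPM in Ctrl early ICMs (2.74 ± 0.30, adjusted p = 3.51e-12), and 92.3 against 39.7 CPM in Sox2-KO early ICMs (1.29 ± 0.31, adjusted p = 0.0028). Ltc4s, leukotriene C4 synthase, held 41 UMIs in Oct4-KO and 4 in Ctrl late ICMs (3.07 ± 0.68, adjusted p = 0.000203). In Sox2-KO early ICMs 2 of 8 antioxidant regulators and targets were higher, where 1.57% of all genes were: Nfe2l2, which encodes the transcription factor NRF2 (175 against 84.0 CPM, 1.13 ± 0.24, adjusted p = 0.000752), and its target Nqo1 (1.62 ± 0.45, adjusted p = 0.0128). Maff was lower in Sox2-KO late ICMs (-1.15 ± 0.42, adjusted p = 0.0489), a call held in 11 of 26 alternative settings.

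Between stages, 21 of the 83 genes were higher and 8 lower from Oct4 Ctrl morula to early ICM, where 14.1% of all genes were higher and 14.9% lower, and 33 and 6 at that step in Sox2 Ctrl (17.2% and 14.7%). From early to late ICM 16 were higher and 1 lower in Oct4 Ctrl (9.52% and 6.04%), and 5 and 1 in Sox2 Ctrl (1.94% and 0.961%). Glrx, the cytosolic glutaredoxin that uses glutathione to reduce protein disulfides, rose from 14.4 to 367 CPM in the Oct4 line (4.57 ± 0.34, adjusted p = 3.46e-21) and from 8.67 to 866 CPM in the Sox2 line (6.57 ± 0.37, adjusted p = 1.16e-28). Slc1a4 went from 3 to 80 UMIs and from 6 to 97 at the same step, Gstm1 from 3 to 42 and Gstk1 from 1 to 14 in the Oct4 line, and Gstm3 from 0 to 21 and Gstm6 from 2 to 32 in the Sox2 line. Later, Gstk1, the kappa-class transferase of mitochondria and peroxisomes, rose in both lines (2.46 ± 0.54, adjusted p = 0.000154, and 2.30 ± 0.52, adjusted p = 0.00216), as did Ptges (2.25 ± 0.30, adjusted p = 1.66e-09) and Gstm2 (2.20 ± 0.48, adjusted p = 0.000116) in the Oct4 line and Chac1 (3.56 ± 0.60, adjusted p = 5.77e-05) and Ggct (1.81 ± 0.42, adjusted p = 0.00304) in the Sox2 line. Gsto2, the close relative of Gsto1, went from 1 to 8 UMIs in the Oct4 line, and Dpep3 from 19 to 2 in the Sox2 line, a call held in 17 of 25 alternative settings.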

How the data were processed

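Single mouse morulae and ICMs were sequenced from 3′-enriched libraries with UMIs. According to the study's methods and the submitters' processing notes, the authors used UMI-tools, cutadapt, TopHat2 with Bowtie2 on mm10, featureCounts and TRUmiCount. The deposited counts are whole UMIs per gene, without normalization, and the second deposited table holds log2 values on the rlog scale that the authors made with DESeq2. Use of strand in counting is not given in the sources used here.

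Groups came from the sample labels. A gene was tested if, at some stage, a share of 0.5 or more of the embryos had a UMI of it. That left 14053 genes for the fit of 12 groups (96 embryos, Ctrl and KO) and 13923 for the fit of all 16 groups, used for MWT comparisons. edgeR 4.0.16 under R 4.3.3 scaled the counts by TMM and fitted 1 mean per group, and the code was tested on simulated data. Standard errors were derived from the fold change and the F statistic. DESeq2 1.42.0, limma 3.58.1 on rlog values, other scalings, filters, sets of embryos and blocks were alternatives. CPM values use total UMIs, and intervals and ratios of summed UMIs cover counting error at the 95% level only. No 2 embryos of a group had near-equal counts: the lowest chi-square per gene over 416 pairs was 2.63.

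Members and pathway lists were chosen with earlier results of these data known. All 10 members were named, of other pathway genes those called with the largest fold changes (up to 8 per KO and 4 per stage comparison), and the 5 genes most like Mgst2 with at least 10 CPM in 1 group, passing over predicted genes. Dpep2 was listed but not analysed here, and 1 gene that met this rule is not reported here.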

Additional observations from a re-analysis of the deposited data

Results flagged for a closer look

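For the 9 tested members, each in 16 groups, a single embryo stood apart from its group by Dixon's test at the 95% level in 11 cases, where chance gives about 1 in 20 groups. For Mgst2 these were a Sox2-KO late ICM at 39.1 CPM, next to 13.2 CPM in the nearest embryo, and an Oct4 MWT late ICM at 17.8 CPM next to 3.01 CPM. For Mgst3 they were an Oct4 Ctrl early ICM at 41.6 CPM next to 19.1 CPM and a Sox2-KO early ICM at 116 CPM next to 65.5 CPM. Without the latter, the Sox2-KO effect on Mgst3 in early ICMs was 0.75 (adjusted p = 0.144 by edgeR). The 1 UMI of Mgst1 in a Sox2 Ctrl morula (0.949 CPM) and in a late ICM (1.11 CPM) also met the test, which any lone UMI among embryos at 0 does.

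Among the synthesis genes, Gss was at 249 CPM in an Oct4 Ctrl early ICM next to 152 CPM, and Gclc at 3.39 CPM in an Oct4 MWT morula next to 13.7 CPM and at 27.6 CPM in an Oct4-KO morula next to 18.8 CPM. Without the first, Gss still rose from Oct4 Ctrl morulae to early ICMs, by 1.03 on the log2 scale (adjusted p = 0.000147). Among the peroxidases, Gpx4 was at 171 CPM in an Oct4 Ctrl morula next to 107 CPM and at 133 CPM in an Oct4 Ctrl late ICM next to 91.1 CPM. Gpx1 was at 2983 CPM in an Oct4-KO late ICM next to 2220 CPM and at 498 CPM in a Sox2 Ctrl early ICM next to 818 CPM. Without these, the KO effect on Gpx1 was 0.27 in Oct4 late ICMs (adjusted p = 0.162 by edgeR) and 0.43 in Sox2 early ICMs (adjusted p = 0.0586). The KO effect on Gpx4 in Oct4 late ICMs was 1.21 (adjusted p = 1.17e-07) without the Ctrl embryo at 133 CPM.

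The contrasts that differed between lines or stages by their own edgeR test were the KO effects on Mgst2 and Mgst3 in early ICMs, Oct4 minus Sox2 line (-3.22 and -2.20 on the log2 scale), that on Gpx4 in late ICMs (1.17), and that on Gss in the Oct4 line, late minus early ICM (1.29). In Ctrl embryos the step from morula to early ICM differed between the lines for Gclc (1.53) and Gpx4 (-2.83), and that from early to late ICM for Gpx4 (1.43).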

How the results depend on the processing

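Over other scalings, filters, tests and sets of embryos, 1305 values of the members kept their direction and their side of the threshold, 20 gained a call and 7 lost one. Leaving out each of 93 embryos in turn, the counts were 2528, 32 and 5, and none reversed. These embryos were all Ctrl and KO embryos except Sox2-KO morulae, and the Oct4 MWT early ICMs. The calls of Sox2 Ctrl against MWT early ICMs had no such run. Without a fold-change minimum, members called were 5 in Oct4-KO late ICMs (3 with it), 1 in Oct4-KO morulae (0) and 3 in Sox2-KO early ICMs (0), 7 from Oct4 Ctrl morula to early ICM (4), 3 from Sox2 Ctrl early to late ICM (1), and 5 in Sox2 early ICMs, Ctrl against MWT (3). Smaller gains were 3 in Oct4-KO early (2) and Sox2-KO late ICMs (2), 6 from Oct4 Ctrl early to late ICM (5) and 8 from Sox2 Ctrl morula to early ICM (6). Limma on rlog values called 1 in Oct4-KO early ICMs (2), 3 from Oct4 Ctrl early to late ICM (5), 0 at that step in the Sox2 line (1), and 2 for late minus early KO effect in the Oct4 line (1). It lost Mgst3 (1.00) and Gclm (-0.77 and -0.93) between early and late ICM and Gclc in Ctrl against MWT (-0.69), and gained Mgst2 for late minus early KO effect in the Oct4 line (1.52, adjusted p = 0.0151). The cause was not tested. No member was called in KO morulae by DESeq2 or limma. Leaving out 1 embryo gave 1 to 2 members in Oct4-KO early ICMs, 0 to 1 in Oct4-KO morulae (Gss, without Ctrl replicate 1 or 11), 0 to 2 in Sox2-KO early ICMs, where Mgst2 was called at 1.53 to 1.86 without Ctrl replicates 4 or 7 or KO replicates 8 or 21, and 1 to 2 from Sox2 Ctrl early to late ICM (Mgst3). The replicate block called Gss in Sox2-KO late ICMs (1.01, adjusted p = 0.000784) and changed no other call. Ctrl and KO shared a number in 14 pairs, of which 5 had a correlation over 0.1 (-0.078 to 0.231). These low values gave no sign that equal numbers pair embryos. They were not set against unmatched pairs, so they cannot exclude a shared litter or collection. Sox2 morulae share no number, so the block has no term for them. With the label set of late ICMs as a term, 2547 genes were called in Oct4-KO late ICMs (2544 without it) and 973 in Sox2-KO late ICMs (977). From early to late ICM, 2102 were called in Oct4 Ctrl (2187) and 307 in Sox2 Ctrl (407). Library totals alone moved the median of all genes to -0.10 in Oct4-KO late ICMs and 0.10 from Oct4 Ctrl morula to early ICM, and split the Sox2-KO late ICM calls 379 higher and 628 lower, against 469 and 508.

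Limma on rlog values called fewer of all genes: in Oct4-KO ICMs 611 against 1529 (early) and 1236 against 2544 (late), in Oct4-KO morulae 56 against 113, in Sox2-KO ICMs 207 against 459 and 439 against 977, at the Oct4 stage steps 1935 against 4080 and 857 against 2187, at the Sox2 steps 2248 against 4489 and 156 against 407, and in Ctrl against MWT 140 against 359 (Sox2) and 29 against 52 (Oct4 early). Oct4 late ICMs gave 37 against 111 with only those groups in the fit, Oct4 morulae 15 against 9 with no filter, and late minus early KO effect in the Sox2 line 39 by DESeq2 and 3 with MWT embryos in the fit, against 6. Depth limits Mgst1 and, in morulae, Mgst2, where 1 CPM is about 1 UMI.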
